A study of Homo sapiens with 12 samples.

Results

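The p53 target genes examined here are 39 human genes listed from general knowledge as activated by the tumour suppressor p53. They were matched by symbol to the Ensembl gene identifiers of the count files, and all 39 were found among 58662 matched genes. Inhibitors of cyclin-dependent kinases and the BCL2 family were not in the list, which was chosen with earlier results of these data known. Of the 39 genes, 37 were expressed well enough to be tested, among 12830 coding genes tested in all. RNA-seq was run on 12 libraries of HEK293T cells, a human embryonic kidney line, and the question of the study was how the arginine methyltransferase CARM1 and the nucleosome remodelling and deacetylase (NuRD) complex act on transcription. Cells of wild-type genotype received a control siRNA (siCTL) or an siRNA against CARM1, CHD4, HDAC2, GATAD2A or KDM1A, with 2 libraries in each of the 6 groups. CHD4 is the remodelling ATPase of NuRD, HDAC2 a histone deacetylase, GATAD2A a scaffold subunit, and KDM1A (LSD1) a histone demethylase found with NuRD. The time between transfection and harvest and whether the 2 libraries of a group came from separate cultures are not given in the sources used here, so p-values measure the spread between libraries, which may be technical. For CARM1 the methods list a pair of siRNA sequences and the labels do not say which was used.

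p53 is a transcription factor that binds DNA as a tetramer, on a site made of a pair of decamers. In stressed cells it is stabilized and switches on genes for cell-cycle arrest, DNA repair, cell death and metabolism, and it also switches on MDM2, the ubiquitin ligase that marks p53 for destruction, which closes a negative feedback loop. HEK293T cells carry the large T antigen of SV40, a viral protein that binds p53 and blocks much of its activity. The sample titles name HEK293T, while the text of the study names HEK293 cells for this RNA-seq. Whether these cells held the antigen was not tested. Several of these genes also respond to other transcription factors.

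To show the DNA in which such sites lie, 2000 bases on each side of the start of each gene were searched in GRCh37 (hg19) for a pair of p53 decamers with no spacer and at most 2 mismatches in 20 bases. The decamer motif is its own reverse complement, so both strands were covered. Among the 37 tested genes, 15 (40.5%) held at least 1 match, 17 matches in all, against 1129 of the 12830 coding genes (8.80%). The list was drawn from known p53 targets, so the higher share is a description of it and was not tested, and a match is not a bound site. The 6 matches printed next are the 5 with at most 1 mismatch and that of MDM2. They are written 5′ to 3′ on the strand of the gene, with bases that fit the motif in capitals and mismatches in lower case.
ZMAT3 (chr3:178787976-178787995, minus strand, intron): AAACAAGTCCAGACATGCCT
DDB2 (chr11:47236520-47236539, plus strand, across an exon edge): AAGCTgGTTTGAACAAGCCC
CCNG1 (chr5:162864932-162864951, plus strand, intron): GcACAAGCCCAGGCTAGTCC
EDA2R (chrX:65858555-65858574, minus strand, intron): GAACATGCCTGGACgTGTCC
GADD45A (chr1:68152458-68152477, plus strand, intron): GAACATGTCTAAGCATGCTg
MDM2 (chr12:69202703-69202722, plus strand, intron): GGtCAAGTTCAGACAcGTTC

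Counted to the middle of the match, that in DDB2 lay 4 bases after the start of the gene, those in CCNG1 and EDA2R 340 and 356 bases after it, that in MDM2 755 bases after it, and those in GADD45A and ZMAT3 1583 and 1612 bases after it. Only the match of ZMAT3 had no mismatch.

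**Figure D1:**
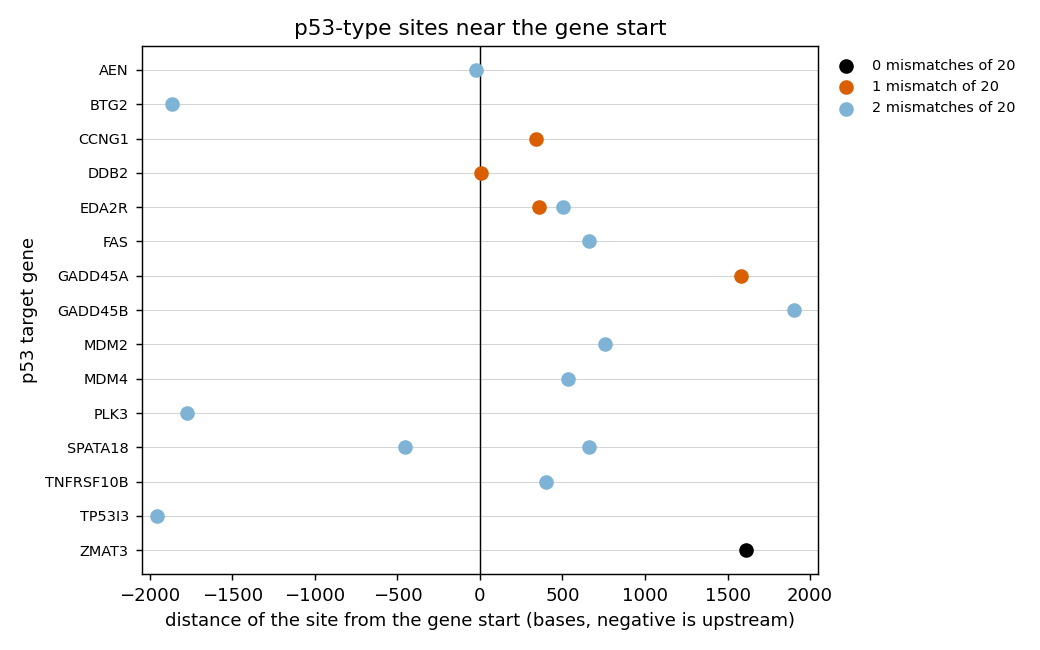
Position of each p53-type match (points) relative to the start of its gene, in bases, for the 15 p53 target genes with a match, coloured by the number of mismatches in 20 bases. The match without a mismatch lies in ZMAT3, and the match nearest after a start is that of DDB2.

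Total counts on genes lay between 19308315 and 28648657 per library, and replicate libraries differed by more than sampling noise in every group (chi-square per degree of freedom 1.77 to 4.97). Each targeted mRNA was lower in its own knockdown. CARM1 fell from 127 and 125 CPM (counts scaled to the size of the library) in siCTL to 25.2 and 23.4, HDAC2 from 204 and 212 to 40.8 and 41.0, GATAD2A from 182 and 166 to 52.7 and 51.0, and KDM1A from 180 and 173 to 28.9 and 29.7. CHD4 fell from 39.5 and 39.7 only to 26.7 and 27.9 CPM, and it was also called lower in siCARM1 (32.6 and 30.7 CPM, -0.32 on the log2 scale). CARM1 was called higher in siKDM1A (157 and 146 CPM, 0.26). Of the 7 marker genes of the line, NEFL, CDH2 and VIM were present at 154, 64.9 and 398 CPM in the mean of siCTL and EYA1 at 5.74 CPM, INA was near 0 (0.636 CPM), and NEFM and PAX2 were below the expression limit. Of the breast markers, ESR1, TFF1, TFF3 and AGR2 were at or near 0, and of the blood markers, PTPRC and CD3E were at 0 in siCTL. In siCHD4 the breast marker GREB1 (12.3 CPM in siCTL and 57.0 CPM in siCHD4) was called higher, and its part in the results of siCHD4 was not tested.

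Levels within siCTL, given as FPKM, a count scaled by exonic length and library size, so that genes of different length can be compared, spanned 2.30 to 95.2 in the 37 tested p53 target genes, with a median of 12.5. MDM2 (95.2 ± 1.9, SD, n = 2) and CCNG1 (92.5 ± 3.3, SD, n = 2), which encodes cyclin G1, were the most abundant, and these levels did not differ beyond their spread. TNFRSF10B followed with 48.7 ± 1.9 (SD, n = 2). At the lower end stood TP53I3, a quinone oxidoreductase, with 2.30 ± 0.45 (SD, n = 2). TNFRSF10C, a decoy receptor of the death ligand TRAIL, had 0 counts in siCTL and at most 0.203 CPM in any library. TRIM22, a ubiquitin ligase also induced by interferon, held 4.76 and 4.92 CPM in siCTL, and both genes stayed under the limit of 0.5 FPKM in every group mean.

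To compare each knockdown with siCTL, a quasi-likelihood model of edgeR was fitted on all 12830 genes and all 12 libraries. A gene was called where the Benjamini-Hochberg adjusted p was 0.05 or less and the fold at least 1.2. The 5 comparisons share the siCTL libraries, so they are set side by side and their likeness was not measured. More p53 target genes were called lower than higher in siCHD4 and in siGATAD2A. In bulk RNA, a change in every cell and a change in some of the cells cannot be told apart. In siCHD4, 16 of 37 were called lower (43.2%), where 24.9% of all tested genes were, and 7 were called higher (18.9%), against 24.0% of all genes. In siGATAD2A, 15 were called lower (40.5%), against 18.2% of all genes, and 4 higher (10.8%), against 15.7%. The median log2 fold change of the 37 genes was -0.15 in siCHD4 and -0.16 in siGATAD2A, while that of all tested genes lay within 0.01 of 0 in both.

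The other knockdowns called as many genes in one direction as in the other or nearly so. In siCARM1, 8 were lower and 8 higher, 21.6% each, against 14.5% and 14.9% of all genes. In siHDAC2, 3 were lower and 3 higher, 8.11% each, against 9.00% and 10.6% of all genes. Without siCTL replicate 1 the lower count in siHDAC2 was 1, and without siHDAC2 replicate 1 the higher count was 1. In siKDM1A, 7 were lower (18.9%) and 6 higher (16.2%), against 11.5% and 14.2% of all genes. Medians were -0.02, 0.02 and -0.04 in siCARM1, siHDAC2 and siKDM1A. These shares, and those in siCHD4 and siGATAD2A, are descriptions. The list was chosen with earlier results of these data known, and no test of it as a whole was run.

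**Figure D2:**
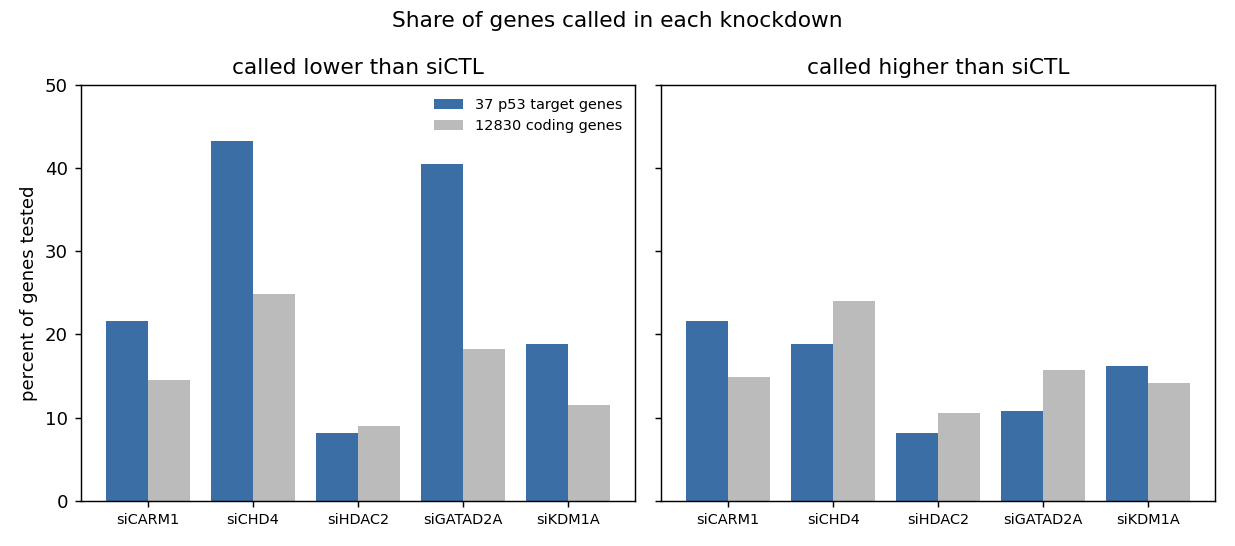
Percent of genes called lower (left) and higher (right) than siCTL in each knockdown, for the 37 p53 target genes (blue) and the 12830 coding genes tested (grey). The share called lower is 43.2% against 24.9% in siCHD4 and 40.5% against 18.2% in siGATAD2A, and 8.11% against 9.00% in siHDAC2.

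The spread of the fold changes also differed between knockdowns. Log2 fold changes ran from -1.30 to 1.11 in siCHD4, from -1.26 to 0.96 in siGATAD2A, from -0.97 to 0.76 in siCARM1, from -0.53 to 0.83 in siKDM1A and from -0.40 to 0.42 in siHDAC2. In size, the median log2 fold change of the 37 genes was 0.46 in siCHD4, against 0.28 in all tested genes. It was 0.30 against 0.20 in siGATAD2A and 0.23 against 0.18 in siCARM1. In siKDM1A it was 0.19 against 0.16, and in siHDAC2 0.12 against 0.14. A change of more than 2-fold was seen in 4 genes in siCHD4, in 2 genes in siGATAD2A and in none of the 37 in the other knockdowns. The share of all tested genes with such a change is not given here, so these counts are no result about the list. All 37 differed among the 6 groups at an adjusted p of 0.05 or less, where 91.1% of all tested genes did. In at least 1 knockdown 32 were called, where 73.0% of all genes were. MDM4, FBXO22, TRIAP1, BTG1 and RPS27L were called in none of the 5.

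**Figure D3:**
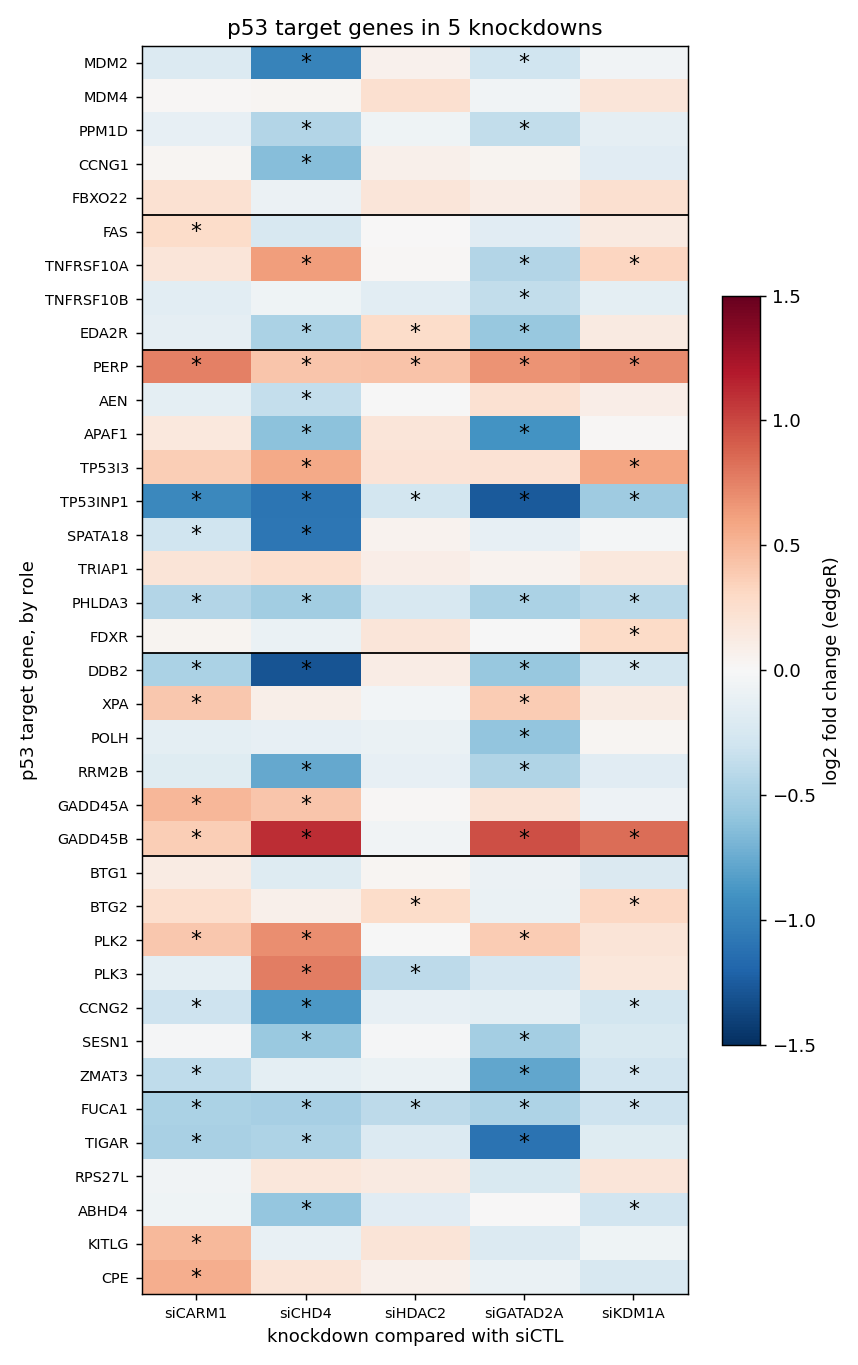
Log2 fold change of each of the 37 tested p53 target genes (rows, with lines between the groups of roles) in each knockdown against siCTL (columns), blue for lower and red for higher, with an asterisk where the gene was called. TP53INP1 and FUCA1 are called lower and PERP is called higher in all 5 columns, and siHDAC2 is the palest column.

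Among the genes that feed back on p53, calls were made only downwards, in 3 of 5 genes in siCHD4 (24.9% of all tested genes) and in 2 of 5 in siGATAD2A (18.2%). MDM2 held 846 and 827 CPM in siCTL and 411 and 428 CPM in siCHD4. The other groups held 700 and 748 CPM (siCARM1), 880 and 864 CPM (siHDAC2), 679 and 679 CPM (siGATAD2A) and 791 and 826 CPM (siKDM1A). Both siCHD4 libraries thus lay far below every other library, and only siHDAC2 lay above siCTL. The log2 fold change in siCHD4 was -0.996 ± 0.038 (SE) (edgeR, adjusted p = 4.51e-20) and that in siGATAD2A -0.30 ± 0.04 (SE, adjusted p = 5.73e-08), and siCHD4 was lower than siGATAD2A by a called difference of -0.69 (adjusted p = 4.19e-16). About 5.29% of the exonic bases of MDM2 overlap another gene model on the same strand, and fragments there are left out as ambiguous. MDM4, the partner that binds p53 but does not degrade it by itself, did not follow: its log2 fold change was called in no knockdown. The ratio of MDM2 to MDM4, in FPKM, was 11.05 and 10.05 in siCTL and 4.95 and 5.37 in siCHD4, and it lay between 8.45 and 9.51 in the remaining libraries. PPM1D, a phosphatase that switches p53 signalling off, was called lower in siCHD4 (-0.44) and in siGATAD2A (-0.37). CCNG1 was called lower only in siCHD4 (-0.63), and it was called different between siCHD4 and each of the other 4 knockdowns.

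The receptors that receive death signals from outside the cell moved apart from each other. TNFRSF10A, which encodes the TRAIL receptor DR4, held 58.7 and 54.1 CPM in siCTL, 86.3 and 87.4 CPM in siCHD4, 40.7 and 42.4 CPM in siGATAD2A and 72.9 and 67.7 CPM in siKDM1A. In siCARM1 it held 65.4 and 61.7 CPM and in siHDAC2 54.6 and 59.2 CPM. No library of siCARM1, siCHD4 or siKDM1A overlapped siCTL, those of siHDAC2 did, and the siGATAD2A libraries were the lowest of all 12. The gene was called higher in siCHD4 (0.63 ± 0.06 SE, adjusted p = 1.48e-10, edgeR) and in siKDM1A (0.32, a call lost without siCTL replicate 2, where the value was 0.26) and lower in siGATAD2A (-0.44 ± 0.06 SE, adjusted p = 1.07e-06). Tested directly, siCHD4 exceeded siGATAD2A by 1.06 ± 0.06 (SE) on the log2 scale (adjusted p = 1.34e-15). TNFRSF10B, the other TRAIL receptor with a death domain (DR5), was called only in siGATAD2A, where it fell by 0.37. FAS, the receptor of FAS ligand, was called only in siCARM1 (0.27), a call lost without siCTL replicate 2 or without siCARM1 replicate 2 (0.19 in both). The call of FAS was also lost in some alternatives that leave no library out, among them counts taken without regard to strand.

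EDA2R, an X-linked receptor of the ligand ectodysplasin A2, held 41.0 and 45.4 CPM in siCTL. It held 30.3 and 31.9 CPM in siCHD4, 29.6 and 28.6 CPM in siGATAD2A and 53.2 and 51.9 CPM in siHDAC2. The remaining groups held 39.3 and 39.7 CPM (siCARM1) and 47.5 and 47.4 CPM (siKDM1A), so that every group was separate from siCTL. It was called lower in siCHD4 (-0.48) and siGATAD2A (-0.57) and higher in siHDAC2 (0.28). The last call was lost without siCTL replicate 1 or siHDAC2 replicate 1 (down to 0.21), while the direct difference of siCHD4 from siHDAC2 was -0.76 (edgeR, adjusted p = 2.07e-11).

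**Figure D4:**
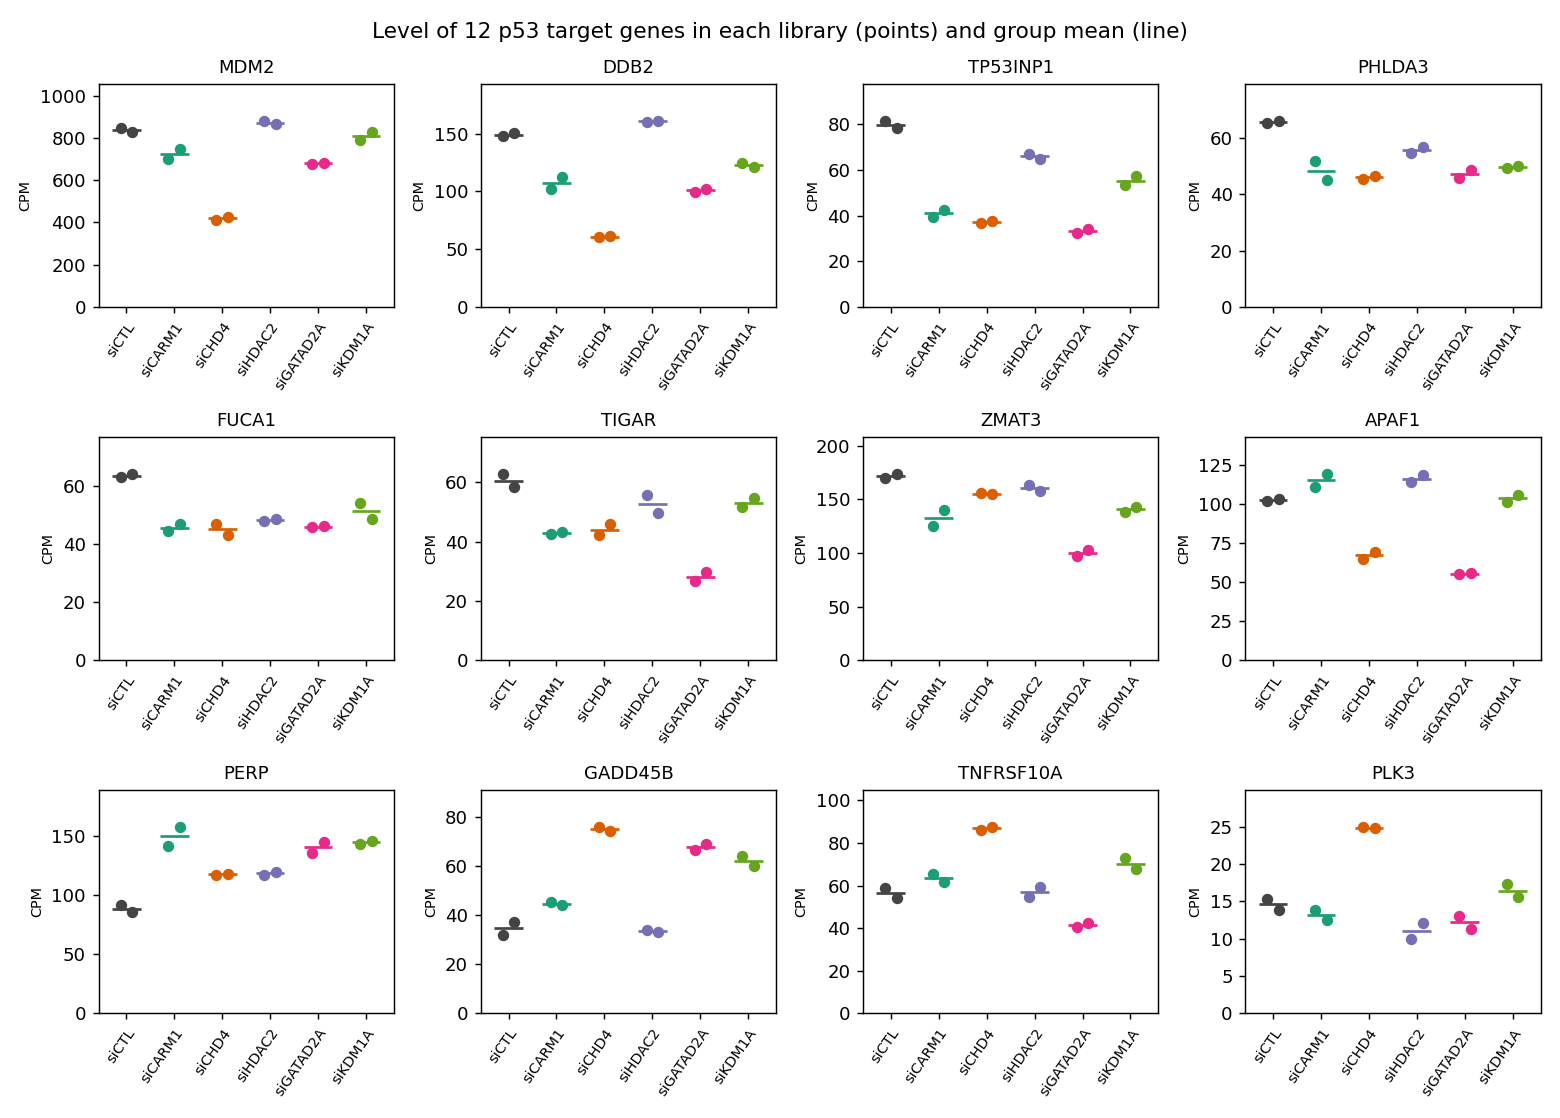
CPM of 12 p53 target genes in each of the 12 libraries (points, 2 per group) with the mean of each group (line), on axes that start at 0. MDM2, DDB2 and APAF1 stand apart in siCHD4 or siGATAD2A, PERP lies above siCTL in every knockdown, and TNFRSF10A is highest in siCHD4 and lowest in siGATAD2A.

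Of the 9 genes that act in cell death inside the cell, 5 were called lower (55.6%) and 2 higher (22.2%) in siCHD4, against 24.9% and 24.0% of all tested genes. TP53INP1, a p53-induced nuclear protein that takes part in cell death and autophagy, held 81.4 and 78.2 CPM in siCTL. Its level was 39.3 and 42.6 CPM in siCARM1, 36.7 and 37.7 CPM in siCHD4, 66.9 and 64.9 CPM in siHDAC2, 32.5 and 34.2 CPM in siGATAD2A and 53.4 and 57.2 CPM in siKDM1A. All 10 knockdown libraries lay below both siCTL libraries. The largest fall was by 1.26 ± 0.06 (SE) in siGATAD2A (edgeR, adjusted p = 1.41e-16), and the smallest by 0.28 ± 0.06 (SE) in siHDAC2 (adjusted p = 0.000414), which was not called without siCTL replicate 1 or siHDAC2 replicate 2 (down to 0.25 in size). Direct tests separated siHDAC2 from siGATAD2A by 0.98 (adjusted p = 7.27e-14) and siCHD4 from siKDM1A by -0.57 (adjusted p = 3.15e-09). For TP53INP1 siCHD4 and siGATAD2A were not called different from each other.

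PERP encodes a membrane protein of desmosomes that p53 induces in dying cells. It held 91.3 and 85.5 CPM in siCTL, 142 and 158 CPM in siCARM1, 117 and 118 CPM in siCHD4, 117 and 120 CPM in siHDAC2, 136 and 145 CPM in siGATAD2A and 144 and 146 CPM in siKDM1A. Every knockdown library lay above both siCTL libraries, the lowest at 117 CPM. The log2 fold changes were 0.76, 0.41, 0.42, 0.67 and 0.71 in that order, each called and each kept under every alternative. siCARM1 exceeded siCHD4 by 0.35 (edgeR, adjusted p = 7.68e-07) and siHDAC2 by 0.34 (adjusted p = 6.63e-06).

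PHLDA3, which competes with the kinase AKT for membrane lipids, held 65.4 and 66.1 CPM in siCTL and 45.0 to 56.9 CPM in the 10 knockdown libraries. By group these were 51.7 and 45.0 CPM (siCARM1), 45.5 and 46.5 CPM (siCHD4), 54.7 and 56.9 CPM (siHDAC2), 46.0 and 48.5 CPM (siGATAD2A) and 49.3 and 50.1 CPM (siKDM1A). It was called lower in 4 knockdowns, by 0.40 to 0.52 in size on the log2 scale, and in siHDAC2 its -0.23 was short of the fold limit. A single pair of knockdowns, siCHD4 and siHDAC2, was called different (-0.28). Of its exonic bases 18.4% overlap another gene model on the same strand, so its counts may leave that part out.

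APAF1, the scaffold of the apoptosome, was lowered in 2 knockdowns and not called in the others. It held 102 and 103 CPM in siCTL, 65.1 and 69.4 CPM in siCHD4 and 55.1 and 55.6 CPM in siGATAD2A, and between 102 and 119 CPM in the 6 libraries of the other knockdowns. The falls were by 0.61 and 0.89 on the log2 scale, and siCHD4 exceeded siGATAD2A by 0.28 (edgeR, adjusted p = 6.82e-05). SPATA18, which acts in the quality control of mitochondria, was called lower in siCHD4, where it fell by 1.09 ± 0.10 (SE) from 22.9 and 24.0 CPM to 11.1 and 10.95 CPM (adjusted p = 2.77e-11). It was also called in siCARM1 (-0.30), but not without siCTL replicate 2 (-0.26). AEN, an exonuclease of apoptotic cells, was called lower only in siCHD4 (-0.36). TP53I3 was called higher in siCHD4 (0.57) and siKDM1A (0.59) at under 10 CPM in every library. Both calls were lost without siCTL replicate 2 (0.37 and 0.39), that in siKDM1A also without siKDM1A replicate 1 (0.35), and with counts taken without regard to strand the change in siCHD4 was 0.16. FDXR, a mitochondrial reductase that feeds electrons to ferredoxin, was called only in siKDM1A (0.29), and not without siCTL replicate 1 (0.24).

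Among the genes of DNA repair and nucleotide supply, DDB2 had the largest change in siCHD4. DDB2 recognizes ultraviolet damage for nucleotide excision repair and carries the match printed above next to its start. Its level was 148 and 150 CPM in siCTL and 60.3 and 61.1 CPM in siCHD4. It was 102 and 113 CPM in siCARM1, 99.7 and 102 CPM in siGATAD2A, 125 and 121 CPM in siKDM1A and 160 and 161 CPM in siHDAC2. The siCHD4 libraries were the lowest of all 12, and only siCARM1 and siGATAD2A overlapped each other. The fall in siCHD4 was by 1.30 ± 0.05 (SE) on the log2 scale (edgeR, adjusted p = 1.61e-19), the largest of the 37 genes in that knockdown. It was called lower also in siCARM1 (-0.48), siGATAD2A (-0.56) and siKDM1A (-0.27, not called without siKDM1A replicate 2, where the value was -0.25), and siHDAC2 (0.11) was not called. siCHD4 was lower than siGATAD2A by a called -0.73 (adjusted p = 2.75e-13) and than siHDAC2 by a called -1.40 (adjusted p = 1.44e-20).

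RRM2B, a subunit of ribonucleotide reductase that supplies nucleotides outside S phase, was called lower in siCHD4 (-0.77) and siGATAD2A (-0.45). POLH, the polymerase that copies past ultraviolet damage, was called only in siGATAD2A, where it fell by 0.59 from 104 and 117 CPM to 75.0 and 72.8 CPM (edgeR, adjusted p = 2e-10). XPA, another factor of nucleotide excision repair, was called higher in siCARM1 (0.40) and siGATAD2A (0.38) at under 10 CPM in every library. The call of XPA in siCARM1 was lost without siCTL replicate 1, siCTL replicate 2 or siCARM1 replicate 2 (0.35 to 0.41). Some alternatives that leave no library out lost it too, among them counts taken without regard to strand. Its lowest value in any alternative was 0.26. That in siGATAD2A was lost without any 1 of the 4 libraries compared (0.37 to 0.39). It was also lost with DESeq2 and with counts taken without regard to strand, and its lowest value in any alternative was 0.27.

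GADD45B and GADD45A encode small stress proteins that bind repair and cell-cycle factors, and they moved unequally. GADD45B held 32.0 and 37.2 CPM in siCTL, 75.7 and 74.2 CPM in siCHD4, 66.4 and 68.8 CPM in siGATAD2A and 63.9 and 59.9 CPM in siKDM1A. In siCARM1 it held 45.1 and 44.1 CPM, and the 34.0 and 32.9 CPM of siHDAC2 overlapped siCTL. It was called higher in 4 knockdowns, by 1.11 ± 0.07 (SE) in siCHD4 (edgeR, adjusted p = 2.08e-15), 0.96 in siGATAD2A, 0.83 in siKDM1A and 0.36 in siCARM1. The pair siCHD4 and siGATAD2A was not called different, and siCHD4 exceeded siCARM1 by 0.75 (adjusted p = 8.12e-12). GADD45A, from 24.8 and 23.5 CPM in siCTL, was called higher in siCARM1 (0.50) and siCHD4 (0.41) only. The ratio of GADD45A to GADD45B, in FPKM, was 0.860 and 0.701 in siCTL, between 0.782 and 0.853 in siCARM1 and siHDAC2, and between 0.381 and 0.479 in the other 3 knockdowns.

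Of the 7 genes of growth arrest and stress, 2 were called lower and 2 higher in siCHD4 (28.6% each), near the 24.9% and 24.0% of all tested genes. In the other knockdowns 1 or 2 were called lower (14.3% or 28.6%), against 9.00% to 18.2% of all tested genes. In each of them 1 was called higher (14.3%), against 10.6% to 15.7%. PLK2 and PLK3, kinases of the polo family that respond to stress, both rose in siCHD4. PLK3 held 15.4 and 13.8 CPM in siCTL, 24.9 and 24.7 CPM in siCHD4, 9.95 and 12.1 CPM in siHDAC2, 13.8 and 12.5 CPM in siCARM1, 13.1 and 11.2 CPM in siGATAD2A and 17.3 and 15.6 CPM in siKDM1A. The siCHD4 libraries were the highest of all 12, with the siKDM1A libraries next, also clear of siCTL. PLK3 was called higher in siCHD4 (0.77 ± 0.10 SE, edgeR, adjusted p = 1.35e-07) and lower in siHDAC2 (-0.39 ± 0.11 SE, adjusted p = 0.0085), the second of these calls being lost without siCTL replicate 1 or siHDAC2 replicate 1 (-0.28 at the least). Tested directly, siCHD4 exceeded siHDAC2 by 1.16 (adjusted p = 4.95e-11) and siGATAD2A by 1.03 (adjusted p = 5.33e-10).

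PLK2 rose from 38.7 and 36.7 CPM in siCTL to 62.1 and 60.0 CPM in siCHD4, 47.3 and 52.1 CPM in siCARM1 and 48.5 and 49.3 CPM in siGATAD2A. It held 40.5 and 34.8 CPM in siHDAC2, which overlapped siCTL, and 41.8 and 44.3 CPM in siKDM1A. The 3 calls were 0.70 ± 0.07 (SE), 0.40 and 0.38 on the log2 scale. CCNG2, which encodes cyclin G2, an atypical cyclin of quiescent cells, held 72.3 and 72.3 CPM in siCTL and 39.8 and 39.7 CPM in siCHD4. Its other levels were 56.6 and 60.5 CPM (siCARM1), 64.6 and 68.5 CPM (siHDAC2), 62.3 and 67.9 CPM (siGATAD2A) and 56.6 and 63.3 CPM (siKDM1A). Every knockdown library lay below siCTL, the siCHD4 libraries by far the lowest. Its fall in siCHD4 was by 0.86 ± 0.06 (SE) on the log2 scale (edgeR, adjusted p = 5.95e-13). Of the calls in siCARM1 (-0.31) and siKDM1A (-0.27), the first was lost without siCARM1 replicate 1 (-0.26) and the second without siKDM1A replicate 1 (-0.20).

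ZMAT3, an RNA-binding zinc-finger protein with the only match free of mismatches, was lowest in siGATAD2A. It held 170.5 and 174 CPM in siCTL, 97.6 and 102 CPM in siGATAD2A, 125 and 140 CPM in siCARM1 and 138 and 143 CPM in siKDM1A. In siCHD4 it held 156 and 155 CPM and in siHDAC2 163 and 158 CPM. All 10 knockdown libraries were thus below siCTL, but the siCHD4 and siHDAC2 changes (-0.15 and -0.10) were not called. The fall in siGATAD2A was by 0.78 ± 0.05 (SE) on the log2 scale (edgeR, adjusted p = 4.54e-14). SESN1, a sestrin that restrains the growth kinase mTORC1, was called lower in siCHD4 (-0.56) and siGATAD2A (-0.51). BTG2, an antiproliferative protein that speeds mRNA deadenylation, was called higher in siHDAC2 (0.28) and siKDM1A (0.31), the first call being lost without siHDAC2 replicate 1 (0.26). BTG1, its close relative, was called in no knockdown.

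Among the genes of metabolism and secretion, FUCA1 and TIGAR were lowered most often. FUCA1 encodes the lysosomal enzyme that removes fucose from glycans. It held 63.2 and 64.2 CPM in siCTL, 44.6 and 46.9 CPM in siCARM1, 46.9 and 43.3 CPM in siCHD4, 48.0 and 48.8 CPM in siHDAC2, 46.0 and 46.2 CPM in siGATAD2A and 54.1 and 48.8 CPM in siKDM1A. The 10 knockdown libraries lay below siCTL and close to each other. Its log2 fold changes were -0.48, -0.50, -0.40, -0.47 and -0.31 in that order, all called, although the call in siKDM1A was lost without siKDM1A replicate 2 (-0.23). None of the 10 pairs of knockdowns was called different for FUCA1, in the same edgeR fit. TP53I3 and TRIAP1 shared this, and the other 34 genes were called in at least 1 pair, where 80.1% of all tested genes were.

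TIGAR, a phosphatase that slows glycolysis, held 62.8 and 58.4 CPM in siCTL and 26.7 and 29.8 CPM in siGATAD2A. The siCARM1 libraries held 42.8 and 43.3 CPM, those of siCHD4 42.2 and 45.8 CPM, those of siHDAC2 55.9 and 49.7 CPM and those of siKDM1A 51.8 and 54.6 CPM. The siGATAD2A libraries were the lowest of all 12. The fall there was by 1.10 ± 0.07 (SE) on the log2 scale (edgeR, adjusted p = 8.22e-14), and siCHD4 exceeded siGATAD2A by 0.64 (adjusted p = 7.7e-09). The falls in siCARM1 (-0.49) and siCHD4 (-0.46) were called as well. Of its exonic bases 18.1% overlap another gene model on the same strand.

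CPE, a carboxypeptidase that trims peptide hormones, was called only in siCARM1. It held 119 and 128 CPM in siCTL and 173 and 188 CPM in siCARM1. The other libraries were 148 and 135 CPM (siCHD4), 131 and 128 CPM (siHDAC2), 112 and 118 CPM (siGATAD2A) and 102 and 107 CPM (siKDM1A), so that siCARM1 stood above every other library. The rise was 0.55 ± 0.05 (SE) on the log2 scale (edgeR, adjusted p = 9.53e-10), and siCARM1 exceeded each of the other 4 knockdowns by a called 0.35 to 0.78. KITLG, the ligand of the receptor KIT, was likewise called only in siCARM1 (0.48), from 27.6 and 26.7 CPM to 36.4 and 39.6 CPM, and siCARM1 exceeded the other 4 knockdowns by a called 0.29 to 0.68. ABHD4, a lipase of N-acyl phospholipids, was called lower in siCHD4 (-0.58) and in siKDM1A (-0.29), the second call being lost without siCTL replicate 1 or siKDM1A replicate 1 (-0.22 at the least).

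Knockdowns were also compared with each other, without the siCTL libraries in the contrast. Against siKDM1A, 18 p53 target genes were called lower in siCHD4, where 25.0% of all tested genes were, and 6 higher, against 22.8% of all genes. Against siHDAC2, 17 were lower in siCHD4 and 5 higher, with 25.3% and 23.5% of all genes. More genes were lower than higher in siGATAD2A against these knockdowns, too. In 16 genes siHDAC2 exceeded siGATAD2A and in 3 it was lower, with 17.0% and 12.5% of all genes, and siGATAD2A was lower than siKDM1A in 15 and higher in 2, with 18.9% and 13.2%. siCARM1 was higher than siCHD4 in 17 and lower in 4, with 24.5% and 23.3% of all genes. It was higher than siGATAD2A in 14 and lower in 2, with 18.6% and 15.2%. The remaining pairs were balanced. siCARM1 was lower than siHDAC2 in 7 genes and higher in 8 (10.1% and 9.28% of all genes), and lower than siKDM1A in 5 and higher in 4 (11.4% and 9.53%). The fewest calls came between siHDAC2 and siKDM1A, with 4 genes lower and 2 higher in siHDAC2 (8.28% and 6.07% of all genes).

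siCHD4 and siGATAD2A, the knockdowns with the most genes called lower, differed from each other in 18 of the 37 genes. GATAD2A itself held 371 and 368 CPM in siCHD4, above its 182 and 166 CPM in siCTL, and the part of this in the difference was not tested. The direction was mixed, with 8 genes lower in siCHD4 (21.9% of all tested genes were) and 10 higher (22.9% of all genes were). MDM2, CCNG1, AEN, SPATA18, DDB2, RRM2B, CCNG2 and ABHD4 were lower in siCHD4. TNFRSF10A, TNFRSF10B, APAF1, POLH, PLK2, PLK3, ZMAT3, TIGAR, RPS27L and CPE were higher in siCHD4. TP53INP1, PHLDA3, SESN1, PPM1D, EDA2R, FUCA1, PERP and GADD45B were among the 19 not called.

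**Figure D5:**
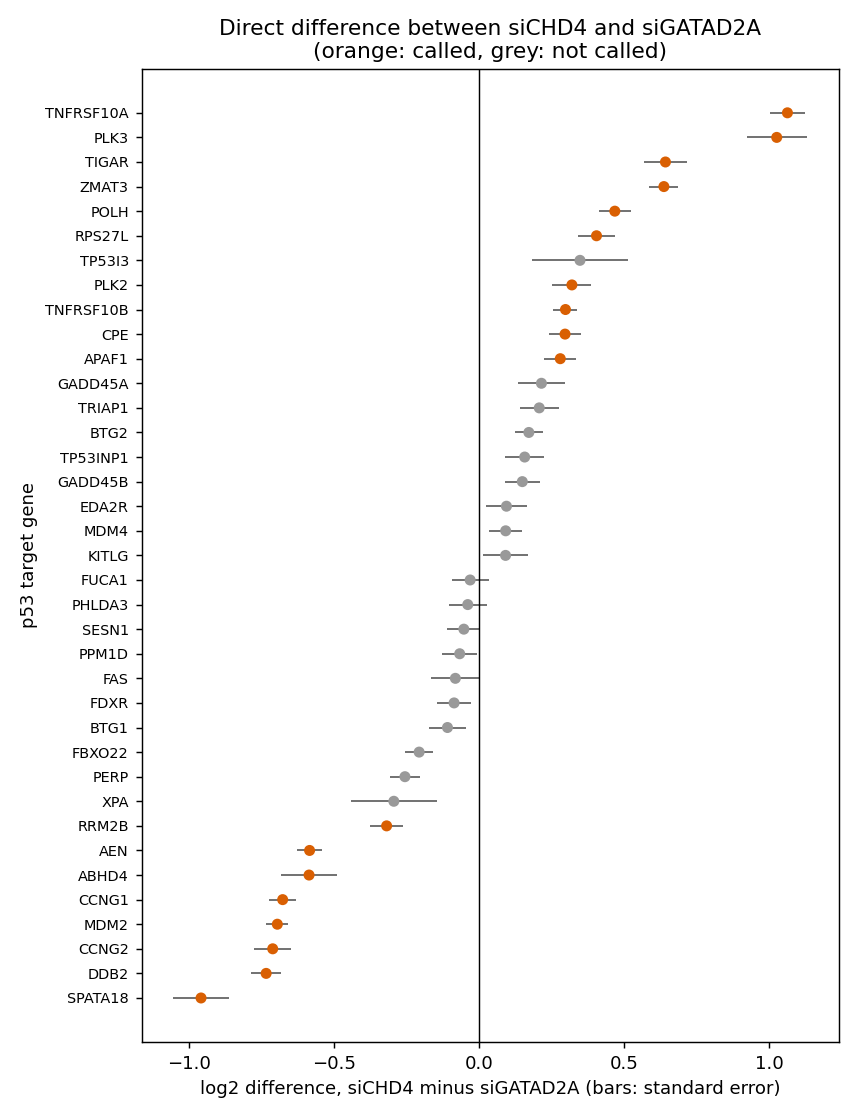
Log2 difference of siCHD4 minus siGATAD2A for each of the 37 p53 target genes (points) with its standard error (bars), sorted, with called genes in orange and the others in grey. Of the 18 called genes 8 lie left of 0, with MDM2 and DDB2 among them, and 10 lie right of 0, with TNFRSF10A (1.06) and PLK3 (1.03) the farthest.

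The matches to the p53 motif near gene starts were set beside the calls. In siCHD4, 6 of the 15 genes with a match and 10 of the 22 without were called lower, and 4 and 3 were called higher. In siGATAD2A, 5 of 15 and 10 of 22 were called lower, and 1 and 3 higher. Of all tested genes, with or without a match, 24.9% were lower and 24.0% higher in siCHD4. In siGATAD2A these shares were 18.2% and 15.7%. The median log2 fold change was -0.15 with and -0.16 without a match in siCHD4, and -0.13 and -0.22 in siGATAD2A. The counts by match were not tested, and the calls of all tested genes were not split by match.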

How the data were processed

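RNA was sequenced in paired ends with a directional kit from 12 HEK293T libraries. For each Ensembl gene the authors deposited counts of read pairs, unstranded and by strand, not normalized. The submitters' processing notes name STAR 2.7.10, CASAVA 1.4 and hg19, while the methods of the study name TopHat, HOMER and DESeq2, so its own pipeline was not repeated here. The annotation behind the counts is not given in the sources used here. Which of the sequencing companies named in the labels handled a library is not given either, so a batch of this kind cannot be told apart.

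Reverse-strand counts were used, and the opposite strand held 7.93% to 8.40% as many. Rows that name no gene (33.7% to 37.0% of fragments: unmapped, multimapping, on no feature or ambiguous) were left out of library sizes. Identifiers were matched to GENCODE release 44 lifted to GRCh37 (96.7% matched). Coding genes with FPKM over 0.5 in the mean of at least 1 group entered edgeR 4.0.16 (R 4.3.3, TMM, quasi-likelihood, 6 group means). Calls needed a fold of 1.2 or more and an adjusted p (Benjamini-Hochberg, over all genes of a comparison) of at most 0.05. CPM, FPKM and fold changes were computed from the deposited counts. The biological coefficient of variation was 3.47%. An exact permutation test of 2 against 2 libraries cannot go below p = 0.333 (two-sided), so none was used.

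The members and lists were chosen with earlier results of these data known. Members got values in every library where called in at least 3 knockdowns, called in opposite directions, or among the 2 largest called changes in a direction. Sites were searched within 2000 bases of the canonical start, and for FAS from the start of the gene. Tests were checked on simulated data. Alternatives were DESeq2 1.42.0 and its size factors, a replicate block, only the groups compared, unstranded counts, FPKM over 1, no filter, adjusted p alone, and each library left out.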

Additional observations from a re-analysis of the deposited data

How the results depend on the processing

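Of the 77 calls of p53 target genes in the 5 knockdowns, 60 were kept under every alternative, 17 were lost under at least 1 and none was reversed in these alternatives. The loss came in each of the 17 when some library was left out, where the single library left in its group is assumed to vary like the others. Leaving out 1 library gave 1 to 3 genes lower and 1 to 4 higher in siHDAC2, 7 to 8 lower and 7 to 10 higher in siCARM1, 16 to 17 lower and 7 higher in siCHD4, 15 to 17 lower and 3 to 4 higher in siGATAD2A, and 5 to 7 lower and 5 to 6 higher in siKDM1A. With the adjusted p alone and no fold limit, the counts were 13 lower and 13 higher in siCARM1 and 6 and 8 in siHDAC2. In siKDM1A they were 14 and 10, in siCHD4 19 and 10 and in siGATAD2A 18 and 5, since this rule adds small changes. The share of all tested genes under this rule is not given here, so these counts are no result about the list. The replicate block gave 16 lower and 7 higher in siCHD4 and 15 and 4 in siGATAD2A, and changed none of the 185 calls and non-calls. Replicate numbers did not pair the libraries (correlation of deviations between groups from -0.183 to 0.170). With 2 libraries per group the precision rests on a spread shared by all groups, and the genes under 10 CPM in every library (TP53I3, XPA) lost all 4 of their calls in at least 1 alternative.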

Other observations

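Another 21 p53 target genes, none of them among the 39, were tested in the same edgeR fit. They gave 6 genes lower and 3 higher in siCARM1, 7 and 4 in siCHD4, 1 and 3 in siHDAC2, 6 and 1 in siGATAD2A and 2 and 6 in siKDM1A. Of all tested genes, 14.5% were lower and 14.9% higher in siCARM1, 24.9% and 24.0% in siCHD4, 9.00% and 10.6% in siHDAC2, 18.2% and 15.7% in siGATAD2A and 11.5% and 14.2% in siKDM1A. Shares of the 21 genes near these, such as 3 higher in siCARM1 (14.3%), are no result about them. PIDD1, a death-domain scaffold of the caspase-2 complex, fell by 1.89 on the log2 scale in siCHD4 (adjusted p = 8.41e-24), from a mean of 269 CPM in siCTL to 72.5 CPM, and was called lower also in siCARM1 (-0.81), siGATAD2A (-0.84) and siKDM1A (-0.56). TNFRSF10D, a decoy receptor of TRAIL, was called higher in all 5 knockdowns, from 26.6 CPM in siCTL to 153 CPM in siCHD4 (2.53, adjusted p = 5.1e-25) and 58.8 CPM in siGATAD2A (1.15), and least in siHDAC2 (0.27). These other genes were not followed through the alternatives.

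Of 30 genes of the p53 family and its kinases, ligases and cofactors, 29 were tested, and TP63 was not. Between 3 and 6 were called lower and between 2 and 4 higher in a knockdown, 10.3% to 20.7% and 6.90% to 13.8% of the 29, against 9.00% to 24.9% and 10.6% to 24.0% of all tested genes. SETD7, a lysine methyltransferase with p53 among its substrates, was called higher in all 5 knockdowns (0.97 to 1.36). TP73, a relative of p53, was called lower in all 5, most in siCHD4 (-0.96). KAT5, an acetyltransferase of p53, was called lower in 4 (-0.28 to -0.47), and not in siGATAD2A (-0.20).

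TRIM22, which was below the expression limit, held 1.30 and 2.48 CPM in siCARM1, 1.41 and 1.28 CPM in siCHD4, 5.21 and 5.29 CPM in siHDAC2, 2.56 and 2.43 CPM in siGATAD2A and 2.7 and 4.19 CPM in siKDM1A. In the edgeR fit without a filter on low values it was called lower in siCARM1, siCHD4, siGATAD2A and siKDM1A, most in siCHD4 (-1.87, adjusted p = 5.28e-15), and not in siHDAC2 (0.11).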
